A study of Mus musculus with 6 samples.

Results

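The Dlk1-Dio3 domain is a cluster of imprinted genes on the distal part of mouse chromosome 12, and it was described here through its 6 named genes in newborn epidermis with and without Eed. The members were the rows of the count files with the symbols Meg3, Rian and Mirg, the noncoding genes, and Dlk1, Rtl1 and Dio3, the protein-coding genes. All 6 were found among the 24453 gene symbols of the files. They were chosen with the contrast between Eed cKO and control libraries already known, so their values in that contrast are a description and no test is given for them.

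The study held 6 RNA-seq libraries of mouse epidermis at postnatal day 0, 3 labelled Eed cKO (genotype Eed-/-) and 3 labelled control. Eed is the subunit of Polycomb repressive complex 2 that binds trimethylated lysine 27 of histone H3, and the complex lays down that repressive mark. Interfollicular epidermal cells had been sorted from back skin as EpCAM-positive, Sca1-positive and α6-integrin high, and RNA was amplified before sequencing. The labels do not give the Cre driver, the deleted exons, the alleles carried by the control animals or the number of animals per library. The spread between libraries may then be partly technical, and p-values measure that spread only.

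Imprinted genes are transcribed mainly from the copy inherited from one parent. In mouse, the noncoding genes of this domain are transcribed from the maternal chromosome and the coding genes from the paternal one, under a control region between Dlk1 and Meg3 that carries DNA methylation on the paternal copy. Meg3 is a long noncoding RNA, Rian is the host of a cluster of C/D box small nucleolar RNAs, and Mirg is the host of a large microRNA cluster. Dlk1 encodes a membrane protein related to the Notch ligands, Rtl1 a protein derived from a retrotransposon, and Dio3 the deiodinase that inactivates thyroid hormone. The counts do not separate the parental copies.

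By RefSeq, the genes from Dlk1 at 109452485 to Dio3 ending at 110281097 spanned 829 kb of chromosome 12. By the GENCODE annotation of GRCm38, Dlk1 (ENSMUSG00000040856.17) lay at chr12:109452823-109463336 and Meg3 (ENSMUSG00000021268.17) began 77.7 kb after its end, at chr12:109541001-109571726. Rian (ENSMUSG00000097451.10) lay at chr12:109603940-109661716, Mirg (ENSMUSG00000097391.8) at chr12:109729764-109749460 and Dio3 (ENSMUSG00000075707.5) at chr12:110279068-110281097, all on the plus strand. Rtl1 (ENSMUSG00000085925.3) lay between Meg3 and Rian at chr12:109589193-109600330 on the minus strand. In mouse a maternal transcript that carries microRNAs runs antisense to Rtl1, and the strand setting of the counting was not given in the sources used here. Reads from Rtl1 and from that transcript therefore cannot be told apart. In RefSeq the Rtl1 gene reaches from 109564900 to 109604418, across the end of Meg3 and the start of Rian.

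The start regions of the noncoding and coding genes are shown because those of Meg3 and Rian stand before the members with the largest fitted differences among those that passed the count filter, and that of Dlk1 before the coding neighbour. Each sequence is the 250 bases before the gene start of the RefSeq promoter table on GRCm38.p6, 5′ to 3′, and capitals mark matches to the motifs searched. These were the cyclic AMP response element TGACGTCA, the CCAAT box CCAAT, the TATA box TATAAA, the GC box GGGCGG and the E-box CACGTG, on both strands.
Meg3 (chr12:109540746-109540995, plus strand): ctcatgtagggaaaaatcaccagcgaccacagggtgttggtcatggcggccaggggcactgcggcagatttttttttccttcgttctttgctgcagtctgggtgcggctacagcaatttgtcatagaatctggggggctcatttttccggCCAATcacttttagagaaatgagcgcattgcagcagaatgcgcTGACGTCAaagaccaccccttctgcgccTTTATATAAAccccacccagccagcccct
Rian (chr12:109603695-109603944, plus strand): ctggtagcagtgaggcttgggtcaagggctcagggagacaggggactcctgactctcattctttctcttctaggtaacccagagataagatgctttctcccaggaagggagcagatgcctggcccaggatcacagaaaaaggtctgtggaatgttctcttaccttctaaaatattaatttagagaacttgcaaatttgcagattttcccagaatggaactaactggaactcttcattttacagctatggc
Dlk1 (chr12:109452573-109452822, plus strand): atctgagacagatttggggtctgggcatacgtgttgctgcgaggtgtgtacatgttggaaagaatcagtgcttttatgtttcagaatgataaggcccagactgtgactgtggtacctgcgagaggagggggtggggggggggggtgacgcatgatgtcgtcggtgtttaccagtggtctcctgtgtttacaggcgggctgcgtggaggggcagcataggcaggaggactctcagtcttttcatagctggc

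For Dlk1 that start lies inside the RefSeq gene span, which begins at 109452485. The Meg3 window held 10 CpG dinucleotides, a TGACGTCA element 57 bases before the start, a CCAAT box 100 bases before it and overlapping TATA matches on opposite strands at 29 and 25 bases. Of 32851 RefSeq promoter windows of the same length, 1.55% held TGACGTCA, 33.8% a CCAAT box and 12.4% a TATA box. A further Meg3 window in the table, inside the gene (chr12:109545148-109545397), held no CpG and no match. The Rian window held no CpG and no match, and the Dlk1 window held 8 CpG and no match, against a median of 6 CpG over all windows. The Mirg window (chr12:109734731-109734980) held 10 CpG and a CCAAT box, and the Dio3 window (chr12:110278980-110279229) held 21 CpG, 2 CCAAT boxes, 1 TATA box and 4 GC boxes. GC boxes were found in 32.7% and the E-box, absent from these windows, in 6.02% of all windows. A match is a description of these letters only. The table held no window for Rtl1. By GENCODE, the whole Mirg window lies inside that gene, which begins at 109729764. The Dio3 window runs past the GENCODE start of Dio3 at 110279068, with its TATA box inside the gene.

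The libraries held 27447679, 25231541 and 20998149 counted reads in Eed cKO and 27324708, 29998531 and 25481306 in control. Values are counts per 1e6 counted reads (CPM) after TMM scaling, and a log2 fold change is Eed cKO over control with the standard error (SE) of the edgeR fit. Of 14700 genes that passed the count filter, edgeR's quasi-likelihood test with Benjamini-Hochberg adjustment over all of them passed 499 as higher in Eed cKO (3.39%) and 120 as lower (0.816%) at 0.05, with a median log2 fold change of -0.01. Eed itself had 37.0, 33.7 and 29.2 CPM in Eed cKO libraries, against 45.1, 41.1 and 53.1 CPM in control libraries, and did not pass (log2 fold change -0.48 ± 0.19, edgeR adjusted p = 0.252). A count over the whole gene does not show whether deleted exons are still present. The share of counts on the ribosomal RNA gene Rn45s ran from 6.78 to 7.26% in Eed cKO and from 2.18 to 5.24% in control. Xist had 8.55 CPM in Eed cKO library 2, against 5297 to 7756 CPM in the other 5 libraries.

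Among the noncoding genes, Meg3 was at a like high level in every Eed cKO library and at a low one in every control library. Meg3 had 57.8, 54.7 and 50.2 CPM in Eed cKO, from 1586, 1362 and 1038 counts, against 9.05, 7.57 and 4.10 CPM in control, from 242, 237 and 105 counts. The means were 54.2 ± 3.79 CPM in Eed cKO and 6.91 ± 2.54 CPM in control (SD, n = 3 each). The groups did not overlap, and the lowest Eed cKO library stood far above the highest control library, control 1. The log2 fold change was 2.97 ± 0.28 (SE), and leaving out any 1 library gave 2.70 to 3.21. In bulk RNA, a larger share of cells that make Meg3 and more Meg3 RNA per cell cannot be told apart.

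Rian had 16.0, 19.5 and 22.6 CPM in Eed cKO, from 439, 487 and 466 counts, against 0.973, 1.47 and 2.46 CPM in control, from 26, 46 and 63 counts. The groups lay far apart, and within each group the library numbered 3 was the highest for Rian and the lowest for Meg3. The means were 19.4 ± 3.29 CPM in Eed cKO and 1.63 ± 0.757 CPM in control (SD, n = 3 each), a log2 fold change of 3.57 ± 0.38 (SE). Leaving out 1 library at a time gave 3.30 to 3.97.

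Mirg was read at the edge of detection. It had 27, 14 and 7 counts in Eed cKO, or 0.984, 0.562 and 0.339 CPM, against 0, 1 and 0 counts in control, or 0, 0.0320 and 0 CPM. Every Eed cKO library was above the single control library with a read, control 2, but Mirg fell under the count filter and has no fitted fold change. The pooled counts of 48 in Eed cKO and 1 in control gave a ratio of 55.0 after scaling, with a 95% interval of 9.41 to 2216. This interval covers counting error only, as do all intervals from counts here.

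The coding genes differed among themselves: the groups overlapped for Dlk1, stood apart at low counts for Rtl1, and for Dio3 rested on 1 library. Dlk1 had 6.96, 7.02 and 10.3 CPM in Eed cKO, against 4.83, 9.87 and 5.15 CPM in control. The groups overlapped, since control 2 was above Eed cKO libraries 1 and 2. The means were 8.10 ± 1.92 CPM in Eed cKO and 6.62 ± 2.82 CPM in control (SD, n = 3 each), with a log2 fold change of 0.29 ± 0.38 (SE). The SE exceeds the change, and leaving out 1 library at a time moved it between 0.08 and 0.71.

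Rtl1 had 1.35, 1.89 and 2.90 CPM in Eed cKO, from 37, 47 and 60 counts, against 0.898, 0.128 and 0 CPM in control, from 24, 4 and 0 counts. The groups did not overlap, although control 1 held 24 of the 28 control reads and lay close to Eed cKO library 1. The means were 2.05 ± 0.790 CPM in Eed cKO and 0.342 ± 0.486 CPM in control (SD, n = 3 each). On the log2 scale this was 2.57 ± 1.11 (SE). Without control 1 the log2 fold change was 4.83, so the size of this difference rests on that library. The pooled counts, 144 in Eed cKO and 28 in control, gave a ratio of 5.89 with a 95% interval of 3.91 to 9.17.

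Dio3 had 57, 6 and 0 counts in Eed cKO, or 2.08, 0.241 and 0 CPM, against 0 counts in all 3 control libraries. Eed cKO library 1 held nearly all of the reads, and Eed cKO library 3 was at 0 like the controls. A count of 0 allows up to 3 counts, which was 0.112, 0.0959 and 0.117 CPM in control libraries 1, 2 and 3 and 0.145 CPM in Eed cKO library 3. Over the pooled libraries, 63 counts in Eed cKO against a floor of 3 counts over the control group gave a bound of 24.1-fold for Dio3. Without Eed cKO library 1 it was 3.67-fold, from 6 counts that all came from Eed cKO library 2. Such a bound limits the control side only and takes the Eed cKO counts as exact. It does not cover the spread between libraries and is no lower limit of the difference between groups. The antisense gene Dio3os had 4, 18 and 1 counts in Eed cKO and none in control, a bound of 8.78-fold on the same floor. It was named after its values were seen, and reads of Dio3 and Dio3os may not be separable without strand.

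**Figure D1:**
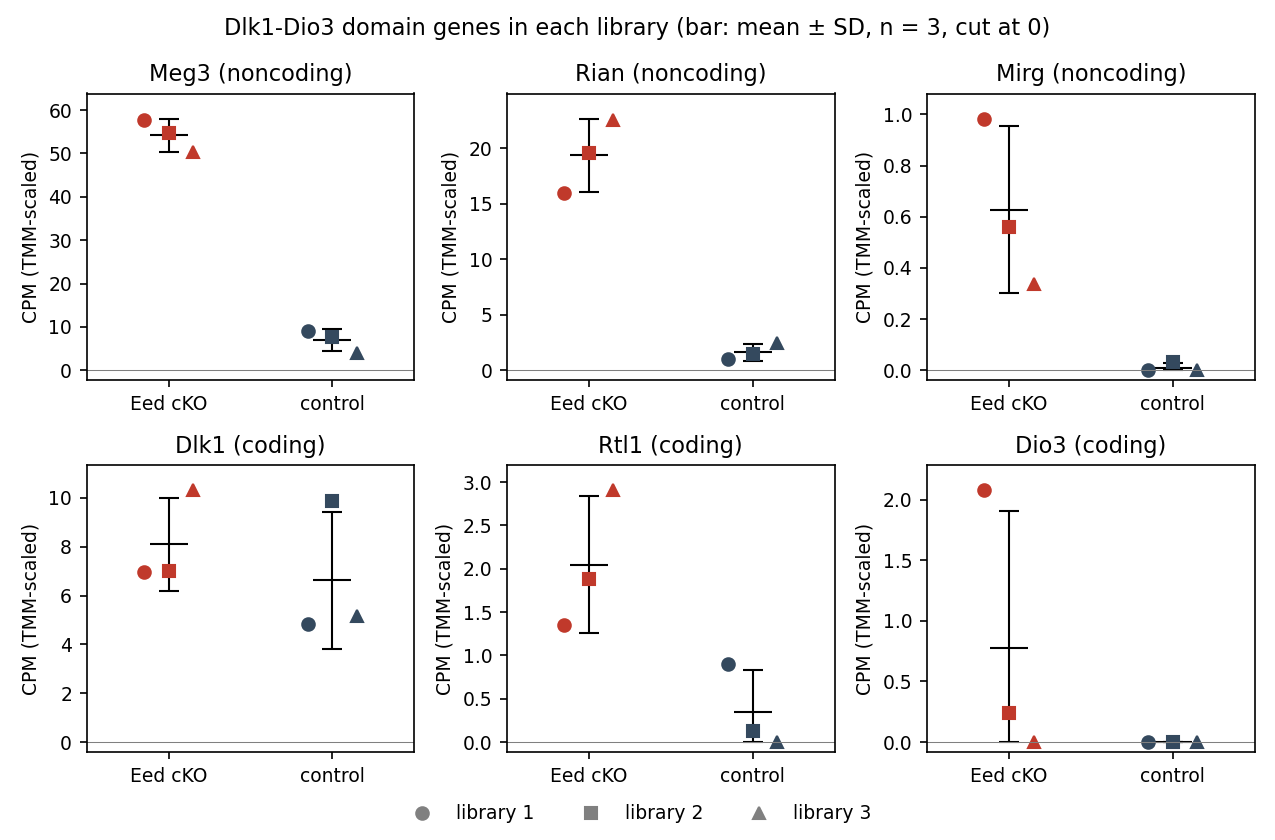
Level of each of the 6 domain genes in each library in CPM, Eed cKO left and control right, each panel on its own linear scale. Points are libraries and bars the mean ± SD (n = 3), with the lower end cut at 0. Meg3, Rian, Mirg and Rtl1 had no overlap between groups, while Dlk1 overlapped and Dio3 came mainly from 1 Eed cKO library.

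Of the 6 members, 4 passed the count filter (Meg3, Rian, Dlk1 and Rtl1), and 2 of these, both noncoding, were among the 3.39% of tested genes that edgeR passed as higher and the 4.21% passed in either direction. Of the 6, 4 had every Eed cKO library above every control library, a state found in 11.0% of the 14700 tested genes. These were all 3 noncoding genes and Rtl1, whereas Dlk1 and Dio3 overlapped. Mirg and Dio3 were not among the tested genes, so the count and that share do not cover the same kind of genes. Since the members were chosen on this contrast, nothing is read from these counts. No member had its groups apart in the other direction, which held for 9.22% of tested genes.

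Reads of the noncoding and coding genes can also be set against each other inside each library, where scaling between libraries plays no part. Most coding reads were Dlk1 reads, 579 in Eed cKO and 570 in control, against 144 and 28 for Rtl1 and 63 and 0 for Dio3. The share is thus mainly Meg3 and Rian against Dlk1, and it uses the values on which the members were chosen. Meg3, Rian and Mirg together made up 87.8, 89.1 and 84.7% of the reads on the 6 genes in Eed cKO, against 63.7, 47.6 and 56.0% in control. The 95% Wilson intervals ran from 83.0 to 90.4% across the Eed cKO libraries and from 43.6 to 68.1% across the control libraries. These intervals hold counting error only, and the control shares spread more widely between libraries than the Eed cKO shares. The mean shares were 87.2 ± 2.26% in Eed cKO and 55.7 ± 8.05% in control (SD, n = 3 each).

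Per kb of annotated exon, the ratio of Meg3 to Dlk1 was 2.60, 2.43 and 1.52 in Eed cKO, against 0.587, 0.240 and 0.249 in control. Meg3 was therefore above Dlk1 in all 3 Eed cKO libraries and below it in all 3 control libraries. Within the noncoding genes the balance was less even. Rian made up 21.7, 26.3 and 31.0% of the reads of Meg3 and Rian together in Eed cKO, against 9.70, 16.3 and 37.5% in control. The groups overlapped here, because control 3 had the highest Rian share of all 6 libraries.

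**Figure D2:**
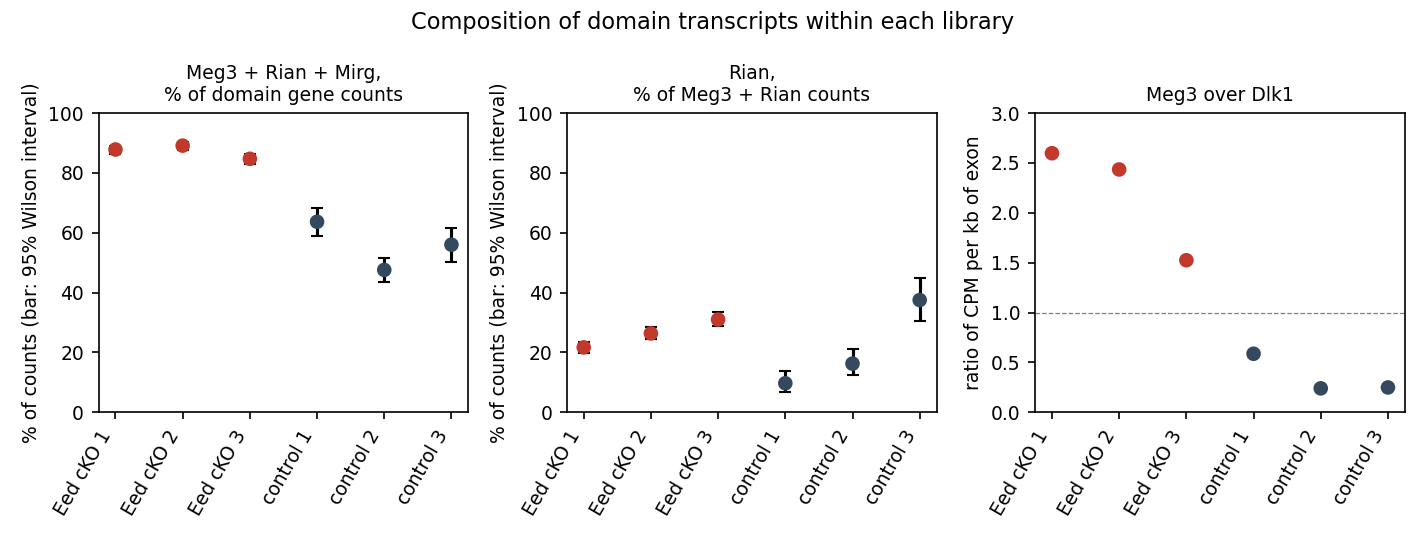
Shares and ratios formed inside each library, Eed cKO left and control right, 1 point per library. Bars are 95% Wilson intervals of the 2 shares in percent of counts, and the dashed line marks equal levels of Meg3 and Dlk1 per kb. The noncoding share of domain reads (84.7 to 89.1% in Eed cKO, 47.6 to 63.7% in control) and the Meg3 to Dlk1 ratio per kb did not overlap, while the Rian share of Meg3 plus Rian reads did.

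The order of the genes' levels changed with it. In CPM per kb of the union of GENCODE exons, Eed cKO libraries averaged 2.998 ± 0.209 for Meg3, 1.43 ± 0.339 for Dlk1 and 1.06 ± 0.180 for Rian (SD, n = 3). Dio3 followed with 0.381 ± 0.560, Rtl1 with 0.322 ± 0.124 and Mirg with 0.0861 ± 0.0449 CPM per kb. Meg3 stood clear of all others in Eed cKO, but the library values of Dlk1 and Rian overlapped, and those of Dio3 spread across the values of Rian, Rtl1 and Mirg. Inside each of the 3 Eed cKO libraries, Dlk1 stood above Rian per kb of the exon union (1.23 against 0.877, 1.24 against 1.07 and 1.82 against 1.24). Rtl1 stood above Mirg in all 3 libraries. With the longest annotated transcript as the length, Rian was at 2.39 and Dlk1 at 1.74 CPM per kb in Eed cKO, so their order depends on the length used.

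In control libraries the level per kb was highest for Dlk1, at 1.17 ± 0.499 CPM per kb, followed by Meg3 at 0.382 ± 0.141 and Rian at 0.0896 ± 0.0415 (SD, n = 3). These 3 did not overlap in library values with the exon union as the length. With the longest transcript, Rian was 1.08 times Meg3 in control 3, so these 2 then overlapped. Rtl1 at 0.0538 ± 0.0764 overlapped with Rian, and Mirg and Dio3 were at or near 0. Against all 24453 symbols, Meg3 had a higher mean CPM than 84.5% in Eed cKO and than 60.1% in control, and Dlk1 than 60.7% in Eed cKO and than 59.7% in control.

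Beyond the 6 genes, the files listed 71 other rows between Dlk1 and Dio3, of which 68 were small RNA genes (61 microRNAs and 7 small nucleolar RNAs) and 3 were long noncoding RNAs. Single reads of 100 bases over a hairpin locus are reads of longer transcripts there and do not measure mature microRNA. Summed over the 68 rows there were 88, 82 and 97 counts in Eed cKO, against 27, 10 and 4 in control. That was 3.73 ± 0.836 CPM in Eed cKO and 0.495 ± 0.453 CPM in control (SD, n = 3 each), and the groups did not overlap. The pooled ratio was 7.46 with a 95% interval of 5.35 to 10.6, and 14.9 without control 1. These rows were not used to choose the members, but by RefSeq 10 lie within Rian and 10 within Mirg, and by GENCODE more lie within Mirg. They are therefore not independent of the reads of these genes.

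By RefSeq spans, the 10 small RNA rows within Rian had 64, 61 and 64 counts in Eed cKO, against 7, 10 and 4 in control, a ratio of 10.3 (95% interval 6.55 to 17.0). Each of the 10 had more reads in Eed cKO. Between Rian and Mirg, 30 rows had 17, 5 and 7 counts in Eed cKO and none in control, a bound of 11.1-fold on the floor of 3 control counts. Of these rows, Mir382, Mir134, Mir668 and Mir485, named for their position, lie inside the longer GENCODE span of Mirg. They had 7, 8, 3 and 1 of these counts. Within Mirg, 10 rows had 4, 6 and 15 counts in Eed cKO and none in control, a bound of 9.54-fold on that floor.

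The stretch from Dlk1 to Rian differed from these. Its 17 rows had 3, 10 and 11 counts in Eed cKO, against 20, 0 and 0 in control, with a ratio of 1.37 and a 95% interval of 0.728 to 2.62. All 20 control reads came from control 1 and fell on Mir540, Mir665 and Mir3070b, which lie within the RefSeq span of Rtl1. Control 1 was also the control library with most Rtl1 reads. Across the rest of the genome, 1210 rows of small RNA genes had 367 ± 51.9 CPM in Eed cKO and 389 ± 61.8 CPM in control (SD, n = 3 each). There the pooled ratio was 0.957 with a 95% interval of 0.942 to 0.973.

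**Figure D3:**
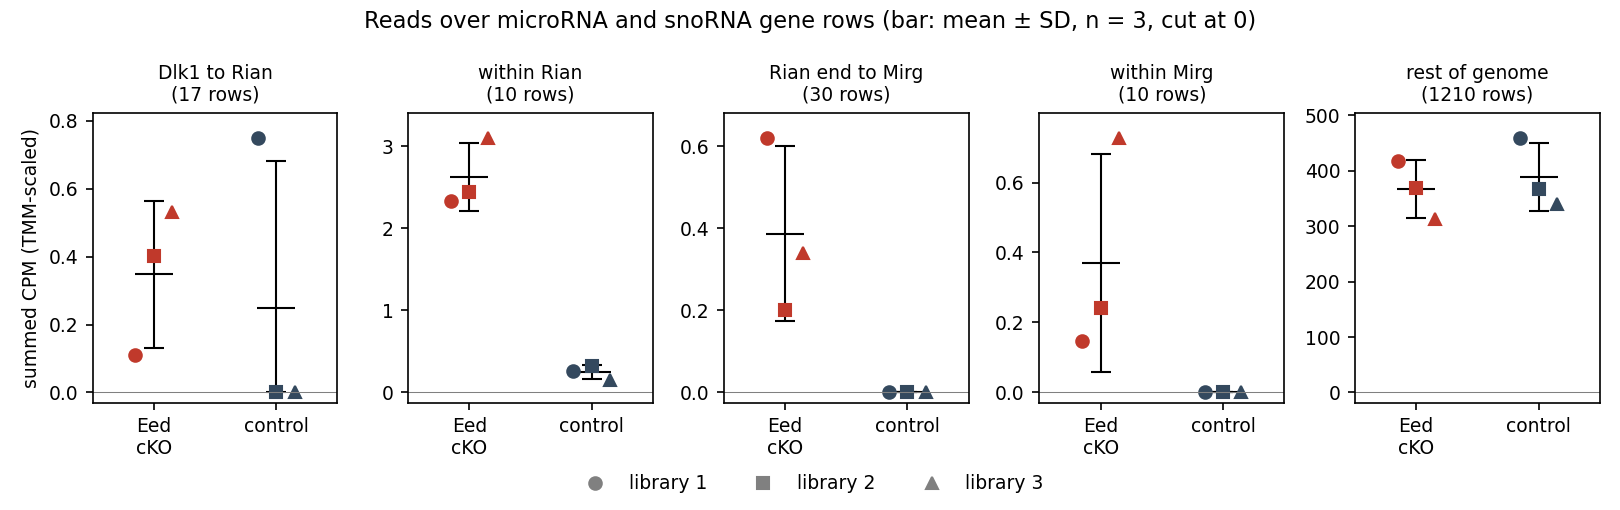
Summed CPM over microRNA and small nucleolar RNA gene rows by stretch of the domain and for the rest of the genome, Eed cKO left and control right in each panel, with points for libraries and bars for the mean ± SD (n = 3) cut at 0. Within Rian the groups were apart (189 pooled counts in Eed cKO, 21 in control), from Dlk1 to Rian they overlapped, and the rest of the genome overlapped.

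One of the 71 rows reached 1 CPM on average in a group, the small nucleolar RNA gene AF357359 within Rian. It had 23, 24 and 28 counts in Eed cKO, against 2, 8 and 2 in control. Its log2 fold change of 2.88 did not pass (edgeR adjusted p = 0.147), and it was the only row of the 71 that passed the count filter. Of the 68 small RNA rows, 28 had any read, of which 26 had more in Eed cKO and 2 more in control. Outside the domain 607 small RNA rows had any read, of which 317 had more in Eed cKO and 290 more in control.

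Mature sequences from RefSeq (GRCm38.p6) are shown for the hairpin rows with at least 1 count in every Eed cKO library and none in control, with the seed (bases 2 to 8) in capitals. This set was picked after its counts were seen, and the reads come from the hairpin loci, so the sequences identify the loci and not RNAs that were measured.
miR-341-5p: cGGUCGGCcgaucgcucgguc
miR-341-3p: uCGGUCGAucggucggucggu
miR-1188-5p: uGGUGUGAgguugggccagga
miR-1188-3p: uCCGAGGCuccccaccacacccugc
miR-382-5p: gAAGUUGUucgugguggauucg
miR-382-3p: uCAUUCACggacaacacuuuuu
miR-377-5p: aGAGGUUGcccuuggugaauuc
miR-377-3p: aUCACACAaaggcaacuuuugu

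Mir341 and Mir1188 lie within Rian, Mir377 lies within Mirg, and Mir382 lies just before the RefSeq start of Mirg but inside its GENCODE span, all on the plus strand. Mir341 had 2, 4 and 1 counts in Eed cKO, Mir1188 had 9, 17 and 3, Mir382 had 3, 2 and 2, and Mir377 had 4, 5 and 13. Control libraries had none of these reads. The 8 mature forms have 8 different seeds. Over the whole domain RefSeq lists 58 hairpins with 114 mature forms and 104 distinct seeds.

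Beyond the domain, 8 genes within 500 kb outside Dlk1 and Dio3 were tested. Of these 8 genes, none passed edgeR's test in either direction, against 4.21% of all tested genes, so a count of 0 is near the background. Of the fitted values, 4 log2 fold changes were positive and 4 were negative, with a median of -0.01. On the Dlk1 side, Begain, a postsynaptic scaffold protein gene, had 7.58, 5.66 and 4.36 CPM in Eed cKO, against 3.03, 2.46 and 2.81 CPM in control. Its groups were apart, with a log2 fold change of 1.08 ± 0.43 that did not pass (edgeR adjusted p = 0.237). Wdr25, also on that side, stood at -0.35 on the log2 scale (edgeR adjusted p = 0.817). On the Dio3 side the log2 fold changes were 0.15 for Ppp2r5c, a regulatory subunit of protein phosphatase 2A, -0.04 for the dynein heavy chain Dync1h1, 0.01 for the chaperone Hsp90aa1 and -0.30 for Wdr20. B930059L03Rik was at 1.34 ± 1.22 and 1700001K19Rik at -0.63, with edgeR adjusted p of 0.704 and 0.830.

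**Figure D4:**
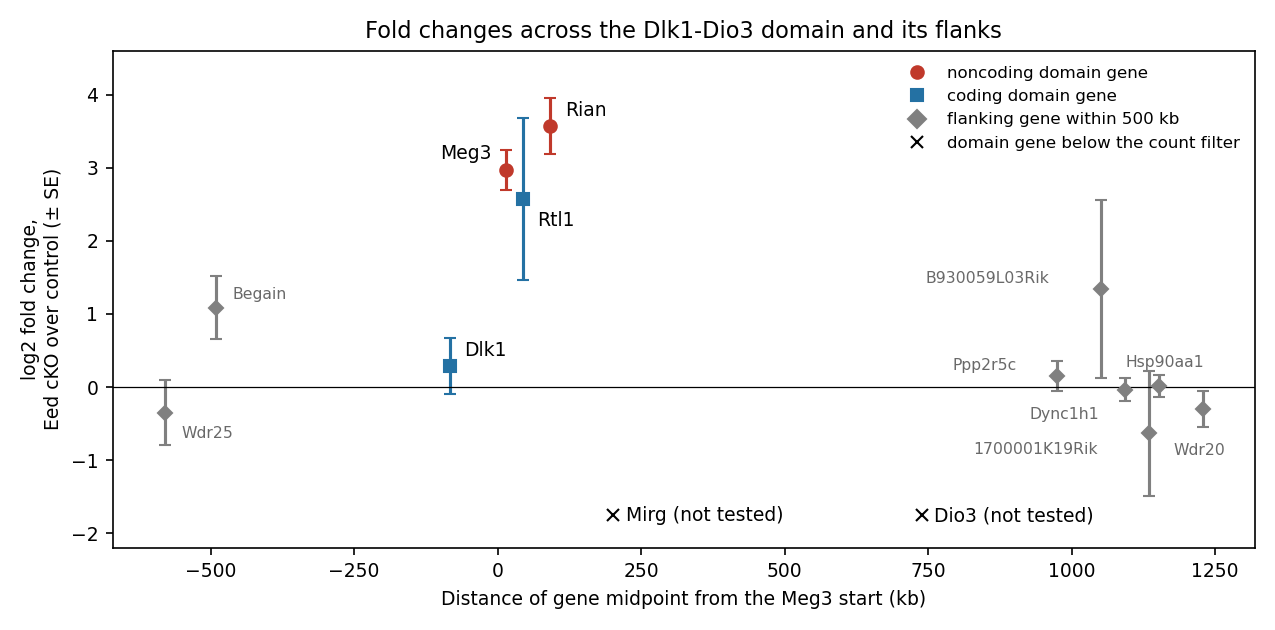
Log2 fold change of Eed cKO over control (± SE of the edgeR fit) against the distance of each gene's midpoint from the start of Meg3 in kb. The fitted values of Meg3 (2.97), Rian (3.57) and Rtl1 (2.57) stood above those of Dlk1 (0.29) and of the 8 flanking genes, none of which passed. Rtl1 did not pass either, and its SE bar (± 1.11) overlapped that of the flanking gene B930059L03Rik (1.34 ± 1.22). Mirg and Dio3 were below the count filter and are marked by crosses with no fold change.

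Across the genome, the tested genes with the pattern over the 6 libraries most like that of Meg3 were Msrb3, Krt79, Barx1, Tnfaip8l3 and Trps1. Likeness was the root mean square difference of log2 CPM centred on each gene's mean, which was 0.156, 0.199, 0.227, 0.254 and 0.264 for these genes, against a median of 1.595 over all 14699 other genes. Msrb3 encodes a methionine sulfoxide reductase, Krt79 a keratin of the hair canal, and Barx1 and Trps1 transcription factors. Barx1 had 0.0374, 0.0639 and 0 CPM in control libraries, below the value of 3 counts, so its likeness rests on values near 0. Rian ranked 229 with 0.784, Rtl1 ranked 308 with 0.855 and Dlk1 ranked 2921 with 1.43. All 6 libraries contribute both to Meg3 and to these genes, so this is a description.

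Other imprinted domains gave a mixed picture. Of 24 listed protein-coding imprinted genes of other domains, 21 were tested: 5 rose in Eed cKO, 1 fell and 15 did not pass. Of all tested genes, 3.39% passed as higher and 0.816% as lower. The median log2 fold change of the list was 0.42, against -0.01 over all tested genes. Zdbf2 had 66.8, 65.7 and 63.9 CPM in Eed cKO, against 6.06, 6.93 and 5.43 CPM in control. The difference was 3.41 ± 0.21 on the log2 scale (SE; edgeR adjusted p = 3.59e-07). Its level did not overlap between groups and was nearly flat within each.

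Plagl1, a zinc finger transcription factor, averaged 167 ± 22.9 CPM in Eed cKO and 65.6 ± 29.7 CPM in control, or 1.35 higher on the log2 scale (edgeR adjusted p = 0.00879). On the same scale, Mest rose by 1.23 (edgeR adjusted p = 0.0108), Grb10, an adaptor that dampens insulin signalling, by 1.12 (0.0142) and Igf2r, the receptor that clears IGF2, by 0.79 (0.0142). Ascl2, a basic helix-loop-helix factor, fell to 5.53 ± 1.33 CPM in Eed cKO, against 14.2 ± 3.72 CPM in control (SD, n = 3 each; log2 fold change -1.36, edgeR adjusted p = 0.0309). Igf2r and Ascl2 were named after their values were seen, because they passed. Mest was no longer called without control 3, nor Grb10 without Eed cKO library 2, nor Igf2r without either of these. The Ascl2 call was lost without control 2 or 3 or without Eed cKO library 2 or 3.

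Of 7 noncoding genes of other domains, 1 rose and 6 did not pass, with a median log2 fold change of -0.19. Over all tested genes 3.39% passed as higher, and in a list this small 1 call is not read as a result. Igf2os, antisense to Igf2, had 172, 73.0 and 75.1 CPM in Eed cKO, against 43.8, 27.6 and 17.0 CPM in control, or 1.86 ± 0.36 higher on the log2 scale (edgeR adjusted p = 0.00810). Its groups did not overlap, and reads of Igf2 and Igf2os may not be separable without strand. With robust dispersion its edgeR adjusted p was 0.0515. Igf2, given as its overlapping partner, was at 0.55 (edgeR adjusted p = 0.1002). It passed with DESeq2 (adjusted p = 0.0236) and without Eed cKO library 2 (edgeR adjusted p = 0.04). Kcnq1ot1 averaged 402 ± 18.4 CPM in Eed cKO and 504 ± 123 CPM in control, a log2 fold change of -0.33. Nespas was at -0.37, and neither of these passed. Airn was at 1.02 (edgeR adjusted p = 0.177) and passed only when control 2 was left out (0.0138) or with no filter on low counts (0.0423), of the fits examined.

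Of 16 tested genes that keep or modify imprints, 0 passed in either direction, with a median log2 fold change of -0.13. Over all tested genes 4.21% passed, so a count of 0 is near the background. Zfp57, the zinc finger protein that protects methylated imprints, had 14.2, 15.9 and 14.9 CPM in Eed cKO, against 6.02, 8.15 and 9.53 CPM in control. Its groups were apart, and its log2 fold change of 0.93 ± 0.28 had an edgeR adjusted p of 0.0960 and a DESeq2 adjusted p of 0.0286. The chromosomal protein Smchd1 was at -0.45, the hemimethylated DNA reader Uhrf1 at -0.47 and the maintenance methyltransferase Dnmt1 at -0.48, with edgeR adjusted p of 0.175, 0.236 and 0.240.

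**Figure D5:**
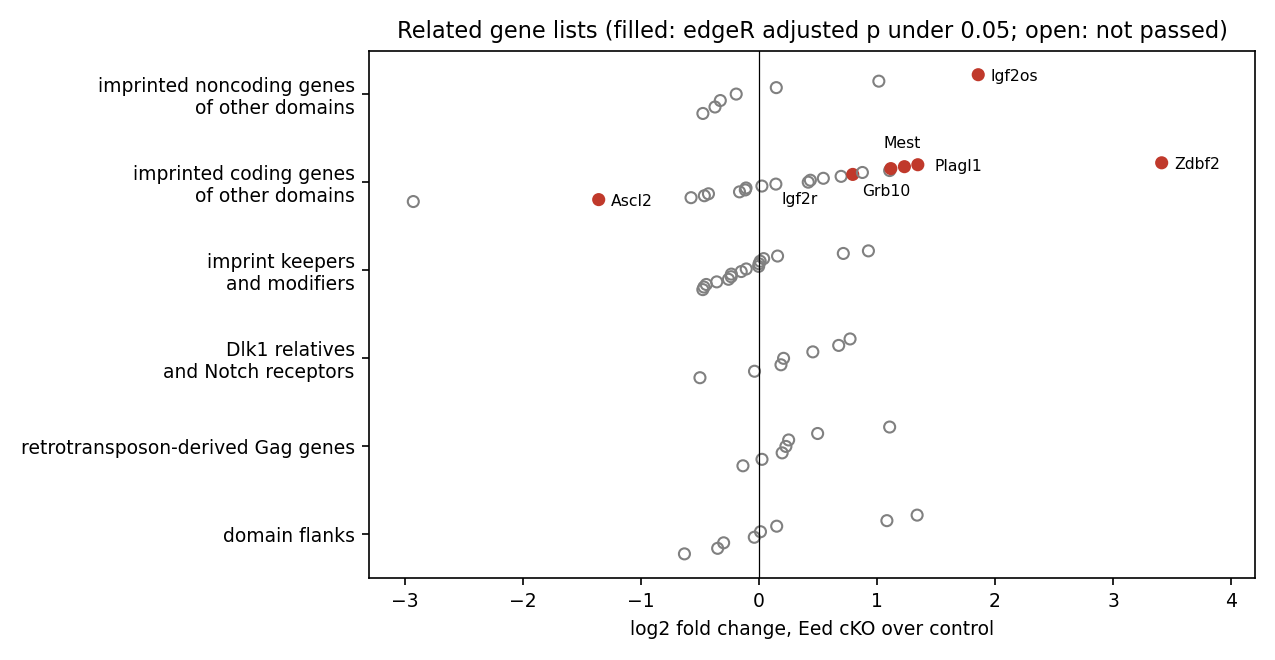
Log2 fold change of Eed cKO over control for the tested genes of 6 lists, 1 circle per gene, filled where the edgeR adjusted p was under 0.05 and open where it was not. Filled circles are Igf2os among noncoding imprinted genes and Zdbf2, Plagl1, Mest, Grb10, Igf2r and Ascl2 among coding ones; the other 4 lists have none.

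Genes related to the products of the coding members were listed as well. Of all tested genes, 4.21% passed in either direction. Counts of 0 or 1 per list, here and in the next paragraph, are near that background, and nothing is read from them. For Dio3, 10 thyroid hormone genes were listed, 8 were tested, 1 rose and 7 did not pass, with a median log2 fold change of -0.15. That call was lost in 5 of the 6 fits that left out 1 library, and with upper-quartile scaling or robust dispersion. The thyroid hormone receptor Thra was at -0.54 and its target Klf9 at -0.61, with edgeR adjusted p of 0.184 and 0.283. Hr, a thyroid hormone receptor corepressor, was at 0.51 (edgeR adjusted p = 0.359).

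For Dlk1, 0 of 7 relatives and Notch pathway genes passed, with a median log2 fold change of 0.21. Notch3 was at 0.68 with an edgeR adjusted p of 0.0960 and a DESeq2 adjusted p of 0.0293, Notch2 at 0.46 (edgeR adjusted p = 0.205), the Notch target Hes1 at 0.77 (0.216) and the closest relative Dlk2 at -0.50 (0.433). For Rtl1, 0 of 7 tested genes of the same retrotransposon-derived family passed, with a median of 0.23. Peg10, also imprinted, averaged 16.4 ± 2.16 CPM in Eed cKO and 7.62 ± 2.14 CPM in control (SD, n = 3 each). Its log2 fold change of 1.11 had an edgeR adjusted p of 0.0537 and a DESeq2 adjusted p of 0.00799.

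Genes of other skin cells were read in the same libraries. The calls in this and the next paragraph stand beside 3.39% of all tested genes passed as higher and 0.816% as lower. The 6 markers of basal keratinocytes and of the sort summed to 25082 to 33641 CPM in Eed cKO and 28053 to 34796 CPM in control, with 1 higher, Epcam. Fibroblast markers summed to 571 to 653 CPM in Eed cKO and 389 to 586 CPM in control, overlapping, with 0 of 7 tested passed and a median log2 fold change of -0.02. Merkel cell markers summed to 7.75 to 14.1 CPM in Eed cKO and 0.195 to 1.82 CPM in control, with 2 of 4 tested higher (Sox2 and Isl1). Mural cell markers summed to 244 to 343 CPM in Eed cKO and 169 to 194 CPM in control, with 1 of 5 higher (Cspg4). Most of the mural sum came from Cspg4 and Notch3. Cspg4 averaged 143 CPM in Eed cKO and 83.3 CPM in control. Notch3 averaged 142 CPM in Eed cKO and 89.1 CPM in control, with overlapping groups. The other mural markers, Rgs5, Pdgfrb and Acta2, were at most 9.92 CPM in any library. Their log2 fold changes were 0.29, 2.03 and 0.62, none of them passed, and the groups overlapped for Rgs5. The sums of the Merkel and mural lists, like Meg3 and Rian, did not overlap between groups, and their part in the result was not tested.

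The summed markers of the remaining types overlapped between groups. Endothelial markers ran from 7.10 to 34.6 CPM in Eed cKO and from 4.98 to 36.0 CPM in control, with 0 of 6 passed. Melanocyte markers ran from 10.7 to 18.9 CPM in Eed cKO and from 8.63 to 25.5 CPM in control, with 0 of 4 passed, and Schwann cell markers from 30.5 to 36.9 CPM in Eed cKO and from 19.8 to 38.9 CPM in control, with 0 of 4 passed. Muscle markers stayed at or below 2.90 CPM in Eed cKO and 1.57 CPM in control, with Myod1 at 0 in all libraries. Macrophage and Langerhans cell markers ran from 30.5 to 113 CPM in Eed cKO and from 72.3 to 160.4 CPM in control, with 1 of 5 lower (Cx3cr1). All 5 tested had negative log2 fold changes, with a median of -0.97, and the groups were apart for Cx3cr1 and Cd68. The part of this in the result was not tested. T cell markers were at most 0.241 CPM in Eed cKO and 0.823 CPM in control, and adipocyte markers ran from 3.58 to 8.53 CPM in Eed cKO and from 2.75 to 7.37 CPM in control with 0 of 3 passed.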

How the data were processed

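RNA from 6 libraries of sorted newborn epidermis was amplified from small input and sequenced as single reads of 100 bases, per the labels' protocols. The values are raw counts per gene, deposited by the authors as 1 file per library. The build is mm10, and HTSeq 0.6.1, TopHat2 2.0.13, DESeq2 1.6.3 and Cufflinks 2.2.1 are listed, per the submitters' processing notes. The annotation, the strand setting and the handling of reads that map to several places were not given in the sources used here. Reads shared by overlapping genes may therefore be lost or counted for either.

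From the counts, edgeR 4.0.16 (R 4.3.3) gave TMM scaling, filterByExpr by group and the quasi-likelihood F-test of genotype, two-sided, with Benjamini-Hochberg adjustment over 14700 genes and a threshold of 0.05; 9753 symbols did not pass the filter. The SE is the unshrunken log2 fold change over the square root of F. Totals ran from 20998149 to 29998531 counts, so 3 counts were 0.0959 to 0.145 CPM in a library. Lower bounds set a pooled count against 3 counts over the control group and take the Eed cKO counts as exact. Ratios of pooled counts have exact 95% intervals, and shares have Wilson intervals. Alternatives were DESeq2 1.42.0, limma-voom (limma 3.58.1), other scalings and filters, robust dispersion, Rn45s left out, the replicate number as a block and each library left out. The fit was tested on simulated counts with known changes.

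Members, lists and tests were chosen with earlier results of these data known. Named genes were the 6 members, Eed, domain rows of at least 1 CPM on average in a group, tested flanking genes within 500 kb, up to 4 genes per list with the smallest p-values, and the 5 genes most like Meg3; exceptions are stated. Symbols were matched to RefSeq GRCm38.p6, 23651 by current and 686 by older symbol, with 116 unmatched. Gene spans and exons are from GENCODE on GRCm38. Promoter windows were matched for 5 of the 6 members. A gene of the thyroid hormone list is not reported here by name or value.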

Additional observations from a re-analysis of the deposited data

How the results depend on the processing

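Of the 17 alternatives for the fitted members, none changed the direction of Meg3, Rian, Dlk1 or Rtl1; since these genes were chosen on this contrast, only their sizes are given. Without both libraries numbered 1, the log2 fold change of Rtl1 was 5.06 and the bound for Dio3 fell to 2.50. With 1 library left out at a time, log2 fold changes ran from 2.70 to 3.21 for Meg3, 3.30 to 3.97 for Rian, 0.08 to 0.71 for Dlk1 and 1.99 to 4.83 for Rtl1. The same fits gave a bound of 3.67 to 33.5 for Dio3, a ratio of 37.3 to 65.5 for Mirg (a bound of 11.6 without control 2, the only control library with a read) and 5.73 to 14.9 for the small RNA rows, the last added after seeing the data. Genes passed as higher ran from 302 to 456 and as lower from 35 to 118 with 1 library left out, and calls in the lists from 4 to 7 up and 0 to 2 down, against 7 and 1 in all libraries. The low ends for higher genes were without Eed cKO library 3 (302) and without control 3 (323), and for lower genes without control 3 (35), Eed cKO library 3 (44), Eed cKO library 2 (51) and control 2 (59). No filter on low counts gave 257 lower genes and 11 list calls up, and DESeq2 764 higher, 270 lower and 11 list calls up. The labels do not state that replicate numbers pair the libraries. Correlations were 0.23, 0.11 and -0.0014 between same-numbered libraries, and from -0.185 to 0.0994 between the others. Whether the numbers pair the libraries is therefore not settled. With the replicate block 675 genes were higher and 269 lower. Log2 fold changes were then 3.03 for Meg3, 3.64 for Rian, 0.34 for Dlk1 and 3.41 for Rtl1. The longest annotated transcript put Rian over Meg3 per kb at 0.649 in Eed cKO, against 0.358 with all exons, and a search of 1 strand found 3 motif matches in the Dio3 window against 7 on both. The per-kb and motif shifts follow from the lengths and strands used, and the cause of the other shifts was not tested. At these depths, Mirg, Dio3 and the small RNA rows rest on few reads, and 3 libraries per group limit every SE.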
